A study of Mus musculus with 4 samples.

Results

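The Serpinb genes encode the clade B serpins, and the binding of the transcription factor p63 along their chromatin was described in mouse epidermis. The family was taken as every protein-coding gene whose symbol begins with Serpinb, which gave 28 of 21887 protein-coding genes in the RefSeq annotation of GRCm38.p6, the assembly that mm10 names. Of these, 12 stand in a tandem cluster on chromosome 1 (106861175 to 107608978) and 16 in a cluster on chromosome 13 (32842092 to 34002794). A p63 peak belonged to the family when its summit, the position of highest coverage, lay in the body of a Serpinb gene or within 10 kb of it, and each peak was counted once. This gave 12 of 10616 peaks in wild-type epidermis and 12 of 14593 in epidermis labelled p63 alphaKO.

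The samples were epidermis of dorsal skin from newborn mice (postnatal day 0), separated from the dermis, dissociated and fixed. Chromatin was precipitated with the p63 antibody EPR570 and sequenced (ChIP-seq). Each genotype, wild type (WT) and p63 alphaKO (alphaKO), had 1 ChIP library with a peak list and 1 input library, which was not used here. The exact alphaKO allele, the strain, the number and sex of animals per library and the p63 isoforms that the antibody recognises are not stated in the labels. A single library per genotype gives no spread between replicates, and no difference between WT and alphaKO was tested.

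Serpins are protease inhibitors that trap their target by a change of shape after the protease cuts an exposed loop. Clade B members mostly lack a classical secretion signal and act inside cells, where several of them restrain cathepsins, granzymes and serine proteases. In stratified epithelia some are made by keratinocytes as they differentiate, and others belong to leukocytes. The p63 protein is the transcription factor on which stratified epithelia depend, and its alpha isoforms carry the longest C-terminal end.

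Sites near gene starts came first among the sequences to inspect, because the strongest WT site of the family was one of them. RefSeq promoter windows, which run from 250 bases before to 50 bases after a gene start, were listed for 26 of the 28 genes as 32 windows. Of these windows 3 held a WT summit, beside 3.88% of all windows of protein-coding genes, and 2 of the same 3 held an alphaKO summit, beside 1.75%. Their bases upstream of the gene boundary are printed 5′ to 3′ on the plus strand of GRCm38.p6, with capitals marking CATG, the core of the sequence that p53-family proteins bind.
Serpinb5, chr1:106860925-106861174: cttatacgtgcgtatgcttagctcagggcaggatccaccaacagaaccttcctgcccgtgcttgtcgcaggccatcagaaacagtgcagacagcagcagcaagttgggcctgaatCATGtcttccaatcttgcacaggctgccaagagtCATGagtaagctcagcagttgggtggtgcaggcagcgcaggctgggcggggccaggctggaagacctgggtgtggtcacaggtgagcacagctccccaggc
Serpinb10, chr1:107528753-107528993: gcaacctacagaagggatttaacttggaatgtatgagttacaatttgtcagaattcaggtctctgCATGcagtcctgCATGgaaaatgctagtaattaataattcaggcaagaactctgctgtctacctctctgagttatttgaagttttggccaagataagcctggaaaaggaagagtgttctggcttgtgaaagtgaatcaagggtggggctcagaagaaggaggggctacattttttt
Serpinb8, chr1:107589756-107589925: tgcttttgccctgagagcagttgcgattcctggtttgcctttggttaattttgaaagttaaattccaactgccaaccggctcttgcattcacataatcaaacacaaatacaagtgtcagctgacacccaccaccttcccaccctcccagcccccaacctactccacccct

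In the Serpinb10 stretch the WT summit fell between the paired cores, and the alphaKO summit lay 5 bp before the start of the first. Counting bases from 1 at the 5′ end, the cores began at bases 66 and 78, the WT summit was base 74 and the alphaKO summit base 61. A pair of CATG cores with 8 bases between them, a form searched only after this sequence had been seen, occurred in 91 of 21263 promoter windows of protein-coding genes (0.428%), and of the Serpinb windows only in that of Serpinb10. In the Serpinb5 stretch the cores began at bases 116 and 150, 49 bp from the alphaKO summit (base 67) and 60 bp from the WT summit (base 56) at the nearest. The Serpinb8 stretch held no CATG, and its WT summit lay 51 bp past the gene boundary, outside the printed bases. CATG reads the same on both strands and is common: 56.3% of all promoter windows held at least 1 and 23.2% at least 2. Among windows holding a WT summit these shares were 44.3% and 13.2%, and among those holding an alphaKO summit 53.5% and 21.8%. The full p53-family site, a pair of 10-base elements without spacer, was found in no Serpinb window and in 1 window of all 21263. A pair of CATG cores with 6 bases between them, the spacing of that full site, was in no Serpinb window and in 149 (0.701%) of all. These letters describe the windows and show no binding site by themselves.

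Across the family, 9 of 28 genes had a WT peak, beside 26.4% of all protein-coding genes, and 8 of 28 had an alphaKO peak, beside 30.6%. The shares of the family, 32.1% and 28.6%, were close to those backgrounds. In both lists 7 genes were marked (20.3% of all genes), in WT only 2, Serpinb12 and Serpinb8 (6.01%), in alphaKO only 1, Serpinb1c (10.3%), and 18 genes had no peak. The 10 genes with a peak in either list stand beside 36.7% of all genes. The Serpinb genes spanned 5.32 to 84.9 kb, and among the 13705 protein-coding genes of that length range 27.2% had a WT and 30.8% an alphaKO peak. The windows of the family, merged where they overlap, covered 1.07 Mb and held 11.2 peaks per Mb in each list. The windows of all protein-coding genes held 5.77 (WT) and 7.35 (alphaKO) peaks per Mb. Those windows include genes of up to 2390 kb, and the densities were not matched for gene length.

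The clusters differed in how many genes were marked. On chromosome 1, 7 of 12 genes (58.3%) had a WT peak and 5 of 12 (41.7%) an alphaKO peak, from 10 and 8 peaks. On chromosome 13 the counts were 2 (12.5%) and 3 (18.75%) of 16 genes, from 2 and 4 peaks. All protein-coding genes stood at 26.4% (WT) and 30.6% (alphaKO). The chromosome 1 counts include Serpinb12 and Serpinb8, whose WT peaks were weak (−log10 q of 7.51 and 8.26), and Serpinb2 and Serpinb10, which share a peak. Genes of the chromosome 1 cluster were also longer, with a median of 19.6 kb beside 11.3 kb on chromosome 13. The shares were not matched for gene length, and the difference between the clusters was not tested. By role, Serpinb5 was marked in both lists, the keratinocyte and suprabasal members in 5 (WT) and 3 (alphaKO) of 9, and the Serpinb1 group in 2 and 3 of 3. None of the 5 Serpinb6 or 8 Serpinb9 genes was marked in either list.

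**Figure D1:**
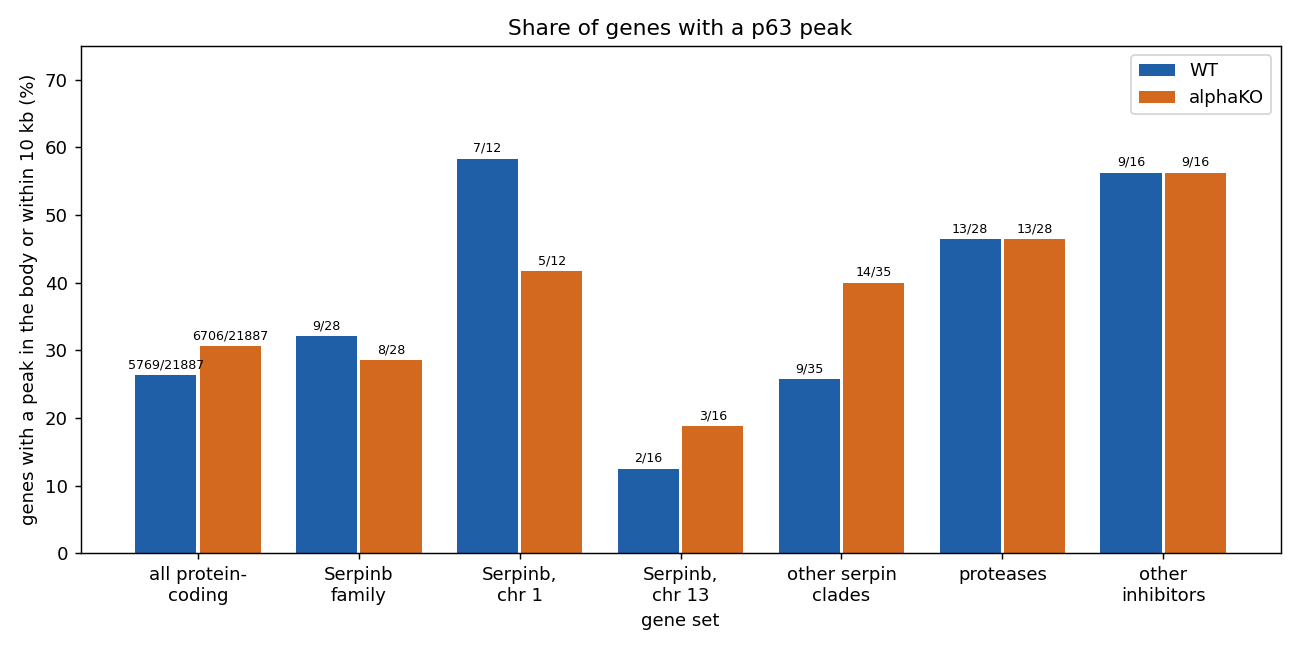
Bars give the percentage of genes in each set with a peak summit in the gene or within 10 kb, in WT and alphaKO (1 library each), with the counts above. The chromosome 1 cluster stands at 7 and 5 of 12 genes and the chromosome 13 cluster at 2 and 3 of 16, with the family as a whole near all protein-coding genes.

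Most family peaks were of middling or low strength within their own list. Fold enrichment, the authors' ratio of coverage at the summit to the local background, had a median of 6.68 over the 12 WT peaks (3.52 to 30.1), beside 8.44 over the whole WT list, and 3 of the 12 lay above the list's median. Over the 12 alphaKO peaks it had a median of 14.6 (2.98 to 32.7), beside 15.5 over that list, with 5 above its median. Folds belong to peaks within a list, so they are set side by side here without a claim of change.

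**Figure D2:**
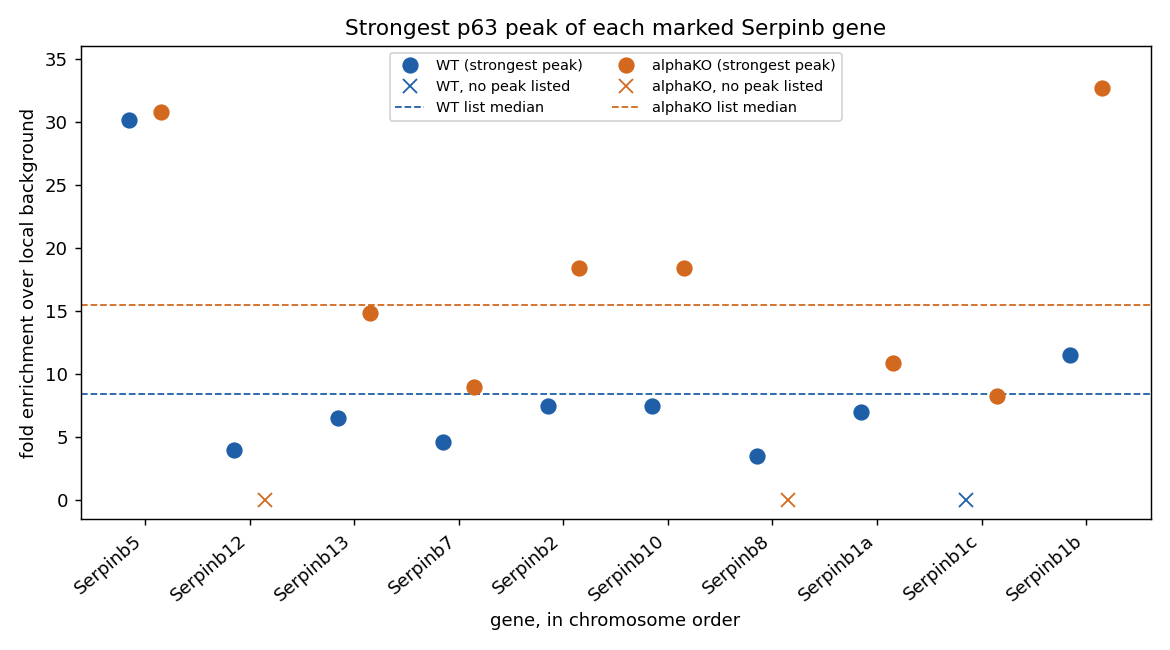
Points give the fold enrichment of the strongest peak of each of the 10 marked Serpinb genes in WT and alphaKO, crosses at 0 mark a gene without a listed peak, and dashed lines are the medians of the whole lists. Serpinb5 is high in both, Serpinb1b has the highest fold in alphaKO, and Serpinb2 and Serpinb10 share their strongest peak.

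Serpinb5 encodes maspin, a clade B serpin of basal epithelial cells that does not inhibit proteases in the classical way and is known as a target of p53-family factors. The gene (chromosome 1, 106861175 to 106883348, plus strand) held the strongest WT peak of the family. At its start the WT peak (106860681 to 106861239) had a coverage of 389 at the summit, a fold of 30.1 and a −log10 q of 423, and ranked 600 in its list. The alphaKO peak there (106860709 to 106861229) had a coverage of 328, a fold of 30.8 and a −log10 q of 363, and ranked 3017 in its list. The summits lay 195 and 184 bp upstream of the gene start and 11 bp apart. So the site was in both lists at like fold, but stood higher in the order of WT peaks (percentile 94.4) than of alphaKO peaks (79.3).

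Within the body of Serpinb5, a site 14.2 kb past the start was also in both lists, with a fold of 8.54 in WT and 14.4 in alphaKO and summits 8 bp apart. A further WT peak 5.01 kb past the start (106866032 to 106866355, fold 5.83) had no alphaKO partner, a partner being a peak of the other list that shares at least 1 bp. Serpinb5 thus had 3 WT and 2 alphaKO peaks.

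The next genes along the cluster, Serpinb12 and Serpinb13, are known from stratified epithelia. Serpinb12 inhibits trypsin-like proteases. It had a weak WT peak in its body (106943812 to 106944127) with a fold of 3.97 and a −log10 q of 7.51, and none in alphaKO. This call was lost at −log10 q of at least 10. Serpinb13 encodes hurpin, an inhibitor of cathepsin L. The WT peak beside it (106979519 to 106979981), 1.27 kb outside the gene, had a fold of 6.53, and the alphaKO peak there a fold of 2.98 with a −log10 q of 4.71, which is under the stricter limit. The alphaKO list had a stronger peak 1.71 kb away from that WT summit (106977814 to 106978171, fold 14.8), with no WT partner. The gene was therefore marked in both lists, while its strongest peaks lay at different sites.

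The Serpinb3 genes and Serpinb11 fill the middle of the cluster and had no peak in either list. Serpinb3a, Serpinb3b, Serpinb3c and Serpinb3d are the mouse relatives of the squamous cell carcinoma antigens, which inhibit cysteine and chymotrypsin-like proteases. From the last summit beside Serpinb13 to the first beside Serpinb7, 436 kb held no summit of either list. With the lists pooled, 5.09% of distances between neighbouring summits were at least as long, and the shares were 12.4% within the WT list and 9.43% within the alphaKO list. The pooled share is lowered by the very short distances between the WT and alphaKO summits of the same site. Some of these genes are closely similar copies and others are not. The promoter windows of Serpinb3b and Serpinb3c were 90.0% identical, the only 1 of 6 Serpinb3 pairs over 80%. That of Serpinb3d was 50.3% to 50.7% identical to those of Serpinb3a, Serpinb3b and Serpinb3c. For Serpinb11 the identity to the Serpinb3 genes was 48.6% to 56.0%, beside a median of 49.7% over all pairs of Serpinb genes. The sources used here do not say how reads that map to several places were treated, and the part of such copies in the absence of peaks was not tested.

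Serpinb7 and Serpinb2 lie beyond that stretch. Serpinb7 encodes megsin, whose loss in people causes a palmoplantar keratoderma. It had a site 6.70 kb (WT) and 6.64 kb (alphaKO) upstream of its start, with folds of 4.63 and 8.99, at percentiles 19.5 and 20.2 of the lists. Both libraries thus placed it low. Serpinb2 encodes plasminogen activator inhibitor 2, an inhibitor of urokinase that differentiating keratinocytes make. Its own surroundings differed between the lists. A WT peak lay 5.23 kb inside the gene boundary (107505952 to 107506318, fold 5.34) and an alphaKO peak 6.13 kb upstream of it (107494568 to 107494895, fold 16.1). These sites are 11.4 kb apart and neither had a partner. The starts of Serpinb2 in the RefSeq promoter table lie further in, 5.30 and 5.39 kb past the WT summit.

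The strongest peak counted for Serpinb2 was the one at the start of its neighbour Serpinb10, which encodes bomapin, a serpin best known from blood-forming cells. That site, whose sequence stands above, had a coverage of 65, a fold of 7.44 and a −log10 q of 33.6 in WT. In alphaKO it had a coverage of 142, a fold of 18.4 and a −log10 q of 128. The summits were 168 and 181 bp upstream of the Serpinb10 boundary. A site 9.96 kb past the listed start of Serpinb10 had its summit at the same base, 107538963, in both lists, with folds of 6.83 and 11.1. At the end of the cluster Serpinb8, an inhibitor of furin, had a WT peak over its start (107589760 to 107590108) and none in alphaKO. This peak had the lowest WT fold of the family, 3.52, and a −log10 q of 8.26, and it too was lost at the stricter limit.

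**Figure D3:**
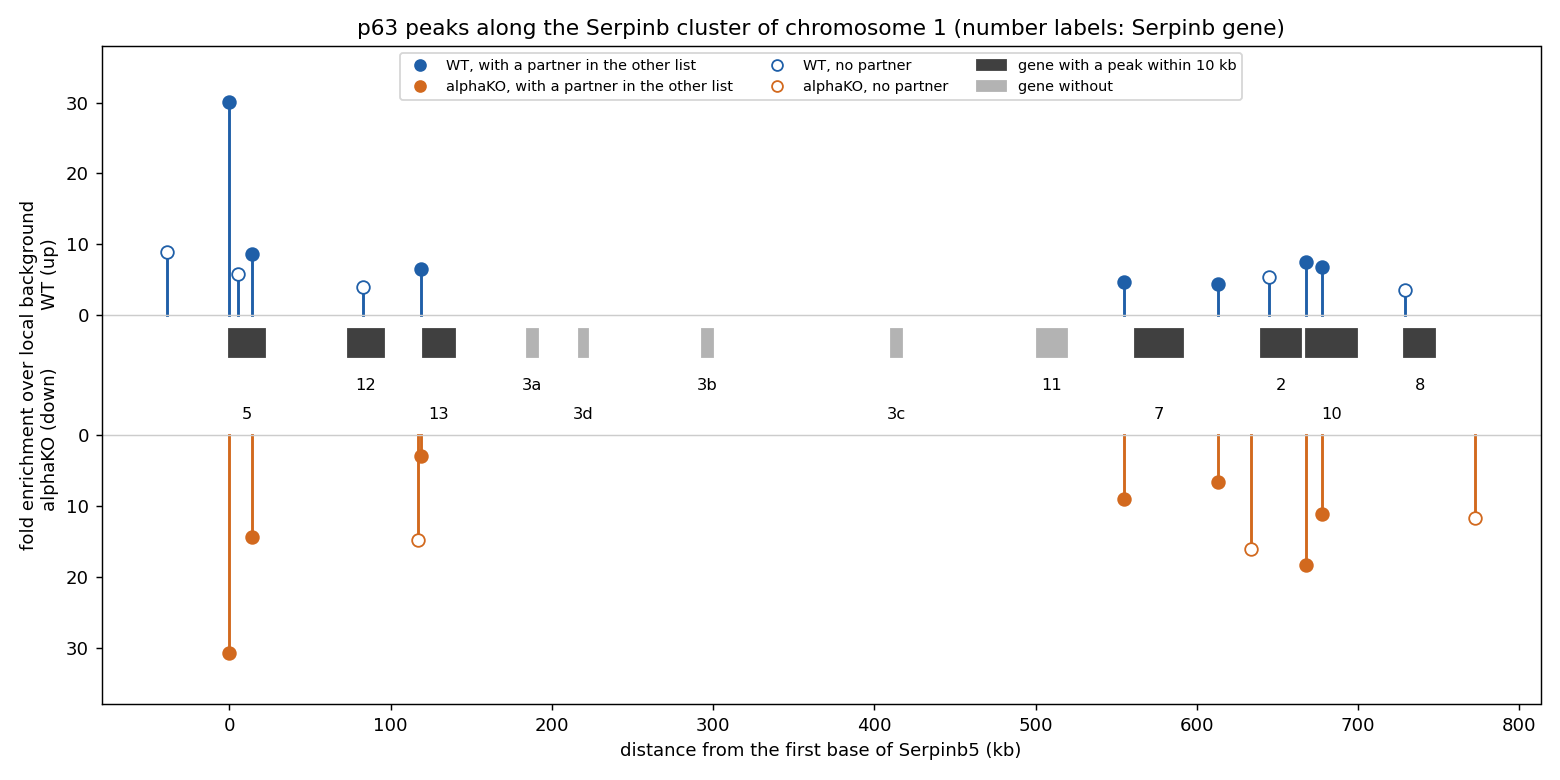
Peaks along the chromosome 1 cluster, with the distance from the first base of Serpinb5 in kb on the horizontal axis and fold enrichment on the vertical axis, WT upwards and alphaKO downwards. Filled points have a partner in the other list and open points have none, grey blocks are the genes, and peaks beyond 10 kb are drawn too. Sites gather at both ends, and the 436 kb around the Serpinb3 genes and Serpinb11 are empty in both lists.

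On chromosome 13 the peaks stood at the Serpinb1 genes, the mouse relatives of the inhibitor of neutrophil elastase and cathepsin G. Serpinb1b (33078504 to 33094380, plus strand) had the alphaKO peak with the highest fold of the family, although the Serpinb5 start had more coverage and a higher −log10 q. At its boundary the WT peak (33078272 to 33078611) had a coverage of 118, a fold of 11.5 and a −log10 q of 81.5. The alphaKO peak (33078214 to 33078643) had a coverage of 202, a fold of 32.7 and a −log10 q of 235. The summits lay 82 and 78 bp outside the gene, 4 bp apart. The window listed for this gene belongs to another start and did not hold them.

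A further alphaKO peak in the body of Serpinb1b (33091177 to 33091558) had a coverage of 270, a fold of 31.5 and a −log10 q of 304, and had no WT partner. It lay 12.9 kb from the alphaKO summit at the boundary. Among the 7523 alphaKO peaks without a partner, 9.23% had a fold as high, and their median was 12.8. Another alphaKO peak near this gene was just too far to count, 11.4 kb upstream, with a fold of 18.6 and no partner. The WT list held only the boundary site at this gene.

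Serpinb1a had a site in both lists 9.22 kb (WT) and 9.21 kb (alphaKO) outside the gene, with folds of 6.98 and 10.9. Serpinb1c had no WT peak and an alphaKO peak in its body (32912840 to 32913425) with a fold of 8.28, at percentile 16.7 of its list. When the alphaKO list was reduced to its 10616 strongest peaks by q, the length of the WT list, this mark was lost and 7 genes were marked in alphaKO.

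The remaining 13 genes of the cluster had no peak. Serpinb6 genes are relatives of an inhibitor of cathepsin G, and Serpinb9 genes of the granzyme B inhibitor that protects cytotoxic lymphocytes. Between the alphaKO summit in Serpinb1b and the next summit of either list, 730 kb with Serpinb9c to Serpinb9h and Serpinb6d had none. That distance was reached by 4.83% of neighbouring summits within the alphaKO list. With the lists pooled the share was 2.65%, again lowered by the short distances within sites found in both lists. In the WT list the empty stretch ran for 1034 kb, and 5.24% of neighbouring WT summits were as far apart. The promoter windows of Serpinb9d, Serpinb9e, Serpinb9f and Serpinb9g were 83.2% to 93.4% identical to each other. These were the only 6 of 28 Serpinb9 pairs over 80%. In the same empty stretch, Serpinb9c was 62.3% to 65.1% identical to those genes, Serpinb9h 50.4% to 51.7% and Serpinb6d 50.7% to 52.9%. As with the Serpinb3 genes, the part of closely similar copies in the absence of peaks was not tested.

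**Figure D4:**
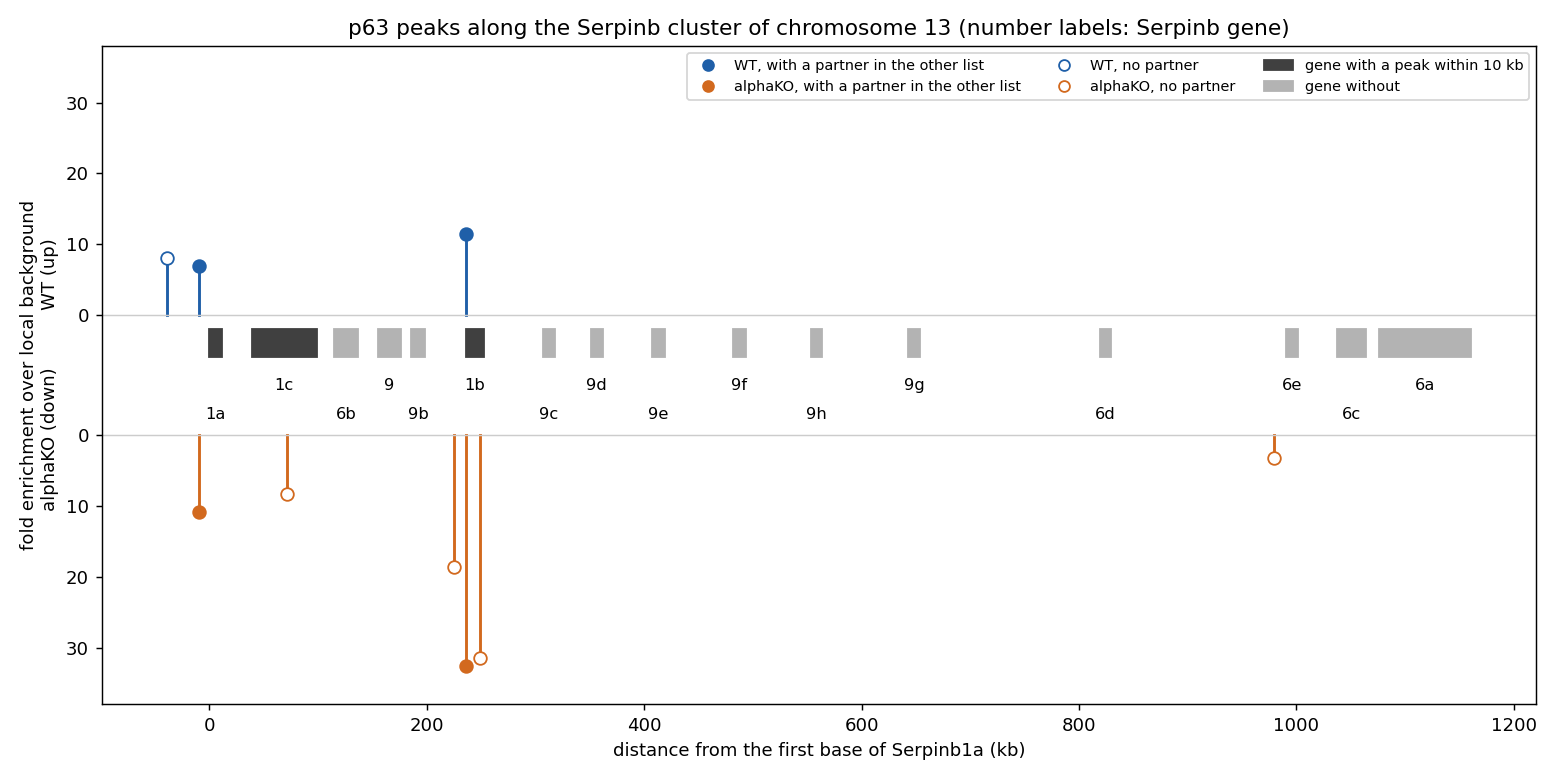
Peaks along the chromosome 13 cluster, with the distance from the first base of Serpinb1a in kb on the horizontal axis and fold enrichment on the vertical axis, WT upwards and alphaKO downwards. Symbols are as for chromosome 1, and peaks beyond 10 kb are drawn too. Sites lie at Serpinb1a, Serpinb1c and Serpinb1b, and the Serpinb9c to Serpinb6d stretch is empty in both lists.

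Partners were about as frequent as in the whole list for WT peaks. Of the 12 WT peaks of the family 8 (66.7%, exact binomial 95% interval 34.9 to 90.1) had an alphaKO partner, beside 66.6% of all WT peaks. Of the 12 alphaKO peaks 8 (66.7%, 34.9 to 90.1) had a WT partner, beside 48.4% of all alphaKO peaks, a value inside the interval. The intervals cover counting error only, and neighbouring peaks are not independent. The 4 WT peaks without a partner, at Serpinb5, Serpinb12, Serpinb2 and Serpinb8, had folds of 3.52 to 5.83, beside a median of 4.79 for all 3550 such peaks. The 4 alphaKO peaks without a partner, at Serpinb13, Serpinb2, Serpinb1c and Serpinb1b, had folds of 8.28 to 31.5.

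The 8 sites in both lists could be ranked among the same 7054 sites that pair the lists across the genome. Both lists are then ranked over the same set of sites, but which sites pair still depends on list length. With equal list lengths, 7 of the 12 WT peaks of the family had a partner. The start of Serpinb5 fell at percentile 91.5 by fold in WT and 67.6 in alphaKO, and the weak Serpinb13 site at 16.1 and 0.815. The Serpinb1b boundary site stood at 50.1 and 70.4, the Serpinb10 start at 22.4 and 43.6, and the Serpinb7 site at 5.74 and 16.1. The body sites of Serpinb5 (30.4 and 33.0) and Serpinb10 (18.2 and 22.9) and the Serpinb1a site (19.3 and 22.3) held nearly the same place. Some of the 8 sites thus stood higher in alphaKO and others lower. How all 7054 sites divide in this way was not counted, so the direction is not read as a trait of the family. Summits of the 8 pairs lay 0 to 86 bp apart with a median of 11 bp, beside 8 bp over all pairs. The Serpinb13 and Serpinb7 pairs had the widest distances, 86 and 67 bp, and 5.32% and 6.31% of all pairs were at least as wide.

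**Figure D5:**
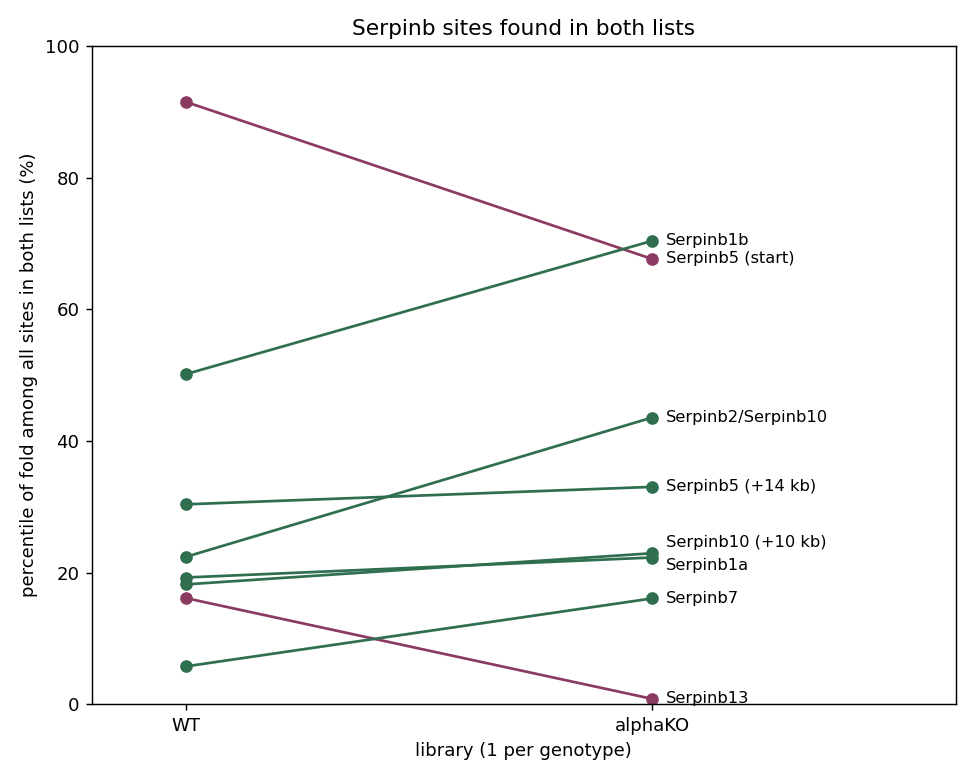
Lines join, for each of the 8 Serpinb sites in both lists, its percentile by fold among all 7054 paired sites in WT and in alphaKO (1 library each), with sites lower in alphaKO in purple. The Serpinb5 start stands at 91.5 in WT and 67.6 in alphaKO, and the Serpinb1b boundary site at 50.1 and 70.4.

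Most family summits were away from gene starts. Within 300 bp of a start there were 4 of 12 WT summits (Serpinb5, Serpinb10, Serpinb8 and Serpinb1b) and 3 of 12 alphaKO summits (the same genes without Serpinb8). Across the whole lists, 10.0% of WT and 3.32% of alphaKO summits lay that near to a listed start. Gene boundaries were also counted as starts for the family, and by listed starts alone its counts were 3 and 2. Inside gene bodies lay 6 WT and 4 alphaKO summits, and exons and introns were not analysed here. No family peak fell in the 10 kb window of a protein-coding gene outside the family.

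The limit of 10 kb left few peaks close to it. The farthest summits inside were those of Serpinb1a, and next those of Serpinb7. In alphaKO the nearest outside were 10.6 kb from Serpinb6e (fold 3.27) and 11.4 kb from Serpinb1b. In WT the nearest outside was 21.4 kb beyond Serpinb7 (fold 4.34), at a site that alphaKO also held (fold 6.58).

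Other serpins, the proteases that serpins restrain and other protease inhibitors of the epidermis were counted in the same way. Of all protein-coding genes 26.4% had a WT peak, 30.6% an alphaKO peak and 20.3% both. Of 35 genes of other serpin clades 9 (25.7%) had a WT and 14 (40%) an alphaKO peak, with 9 in both. They were led in WT by Serpina3i (20.1 in WT and 20.2 in alphaKO), Serpina3n (16.6 and 31.1) and Serpina12, which encodes vaspin (15.2 and 21.1). Of 28 proteases each list marked 13 (46.4%), and 12 were common to the lists. Casp14, the caspase of cornifying keratinocytes, had folds of 27.8 and 79.1. The neighbouring kallikreins Klk10 and Klk8 shared their strongest peak in each list, with folds of 11.4 and 7.34. Of 16 other inhibitors each list marked 9 (56.25%), and 7 were common. They were led by WT fold by Csta1, a cystatin A gene (24.6 and 30.3), Timp3, a metalloprotease inhibitor (22.7 and 28.4), and Spink5, whose product LEKTI inhibits kallikreins (17.9 and 31.4). Neighbouring genes of these lists can share a peak, and no difference between lists was tested.

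All 5 keratinocyte markers (Trp63, Krt5, Krt14, Dsp and Col17a1) had peaks in both lists. Of 12 markers of melanocytes, immune cells, fibroblasts and endothelium, 1 had a WT peak (Pecam1) and 2 an alphaKO peak (Pecam1 and Dct). Peaks do not measure transcripts, so these counts check neither cell content nor genotype. The numbers of reads behind the lists were not analysed here. Local backgrounds recovered from the lists had a median of 8.09 over the family's WT peaks and 6.85 over its alphaKO peaks, beside 8.31 and 5.81 over the whole lists. A gene without a listed peak may still hold a site under the threshold of that list.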

How the data were processed

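The data were p63 ChIP-seq peak lists from 1 WT and 1 alphaKO library. The submitters' processing notes name MACS2 2.1.1.20160309, Bowtie2 and the mm10 build. The sources used here do not state options, control library or duplicate handling. The deposited values, per the file headers, were the coverage signal at each summit (pileup), −log10 of the p-value and q-value, and a fold enrichment, a ratio to the local background. Each list came from a single library.

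Genes came from the RefSeq table of GRCm38.p6, and starts and strands from the RefSeq promoter table. A gene was marked by a summit in its body or within 10 kb; a partner shared at least 1 bp. Background was pileup plus 1, divided by fold, minus 1. Percentiles rank folds, the lowest first. Promoter identity came from global alignment (match 1, mismatch -1, gap opening -2, extension -0.5). The p53-family motif search covered both strands. Members, lists and rules were chosen with earlier results of these data known. Every marked Serpinb gene was named, with up to 3 genes of each comparison list, those marked in both lists with the highest WT fold. No test was run, since each genotype had 1 library. Alternatives were a stricter q, equal list lengths, other flanks and other definitions of a partner; requiring a Serpinb gene as the nearest gene was chosen later, with the data seen. The counting code was tested on simulated data. The scripts ran under Python 3.11.15 with Biopython 1.88, SciPy 1.17.1, pandas 2.3.3, matplotlib 3.10.9 and NumPy 2.4.6.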

Additional observations from a re-analysis of the deposited data

How the results depend on the processing

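Of 46 values recomputed under an alternative, 38 stayed within 1.5 times of the count or inside the interval of the share, and 8 moved further. The 38 include 7 values, those of the nearest-gene setting below, that could not change. The interval of each share, 34.9 to 90.1%, is wide, so a share inside it says little about stability. With gene bodies alone, for example, 50% of alphaKO peaks (2 of 4) had a partner and still lay inside. Counting gene bodies alone left 5 genes with a WT peak, 4 with an alphaKO peak and 2 with both, from 6 and 4 peaks, beside 15.7%, 19.5% and 12.1% of all protein-coding genes, and 33.3% of these WT peaks had a partner. With flanks of 50 kb, 15 genes had an alphaKO peak and 12 had peaks in both lists, beside 55.1% and 41.0% of all genes. Fewer or more positions are counted under these settings by construction. At −log10 q of at least 10 the counts of marked genes were 7 (WT), 8 (alphaKO) and 7 (both), beside 23.0%, 30.1% and 19.2% of all genes. With equal list lengths they were 9, 7 and 7, beside 26.4%, 24.9% and 17.7%. Requiring a Serpinb gene as the nearest one, chosen after seeing the data, left all 7 results at their values. That outcome was fixed beforehand, because no family peak lay within 10 kb of a protein-coding gene outside the family. No paired analysis was possible because each genotype had 1 library. Depth per library was not analysed here.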
